A study of Mus musculus with 15 samples.

Results

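Translation initiation factor genes were followed in the mouse hepatic stellate line JS1, with and without overexpression of exportin-4 (XPO4) and with and without TGFβ. The genes were taken by symbol, as those starting with Eif1 to Eif6. Kinases of eIF2 (Eif2ak), eIF5A genes, pseudogene symbols and a symbol listed more than once were left out. Of 65 such rows 12 were left out, and 53 of the 38277 genes in the tables remained as members. GENCODE names 52 of them as protein coding. The symbols Eif2c1, Eif2c3 and Eif2c4 are older names of the Argonaute genes Ago1, Ago3 and Ago4, which act in RNA silencing and not in initiation, and Eif2c5 is annotated as a long non-coding RNA. They are kept because the symbol rule takes them.

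Initiation factors bring the small ribosomal subunit, the initiator tRNA and the mRNA together at a start codon. The factor eIF2 carries the initiator tRNA with GTP, eIF2B recharges eIF2 with GTP, and eIF3 holds the small subunit open for mRNA. The eIF4 factors bind the cap, unwind the 5′ end and bridge it to the ribosome, and 4E-BPs block that bridge until mTORC1 phosphorylates them. Phosphorylation of the α subunit of eIF2 by stress kinases lowers initiation as a whole. Hepatic stellate cells make extracellular matrix in quantity after activation by TGFβ.

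The 15 libraries fall into 4 groups: 4 with XPO4 and TGFβ, 4 with empty vector and TGFβ, 3 with XPO4 untreated and 4 with empty vector untreated. All groups share the genotype of JS1, cells without their own TLR4 in which wild-type TLR4 is expressed. The labels call the cells transduced, and the species of the XPO4 sequence, the vector and the dose and time of TGFβ are not in the labels. Replicates carry the numbers 0 to 3 (0 to 2 in untreated XPO4 cells) and are not stated to be separate cultures. The p-values therefore measure the spread between libraries, which may be technical.

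Values are FPKM, fragments scaled by transcript length and by the size of the library, which is meant to make levels comparable between genes. How well this worked for each gene is not known, so differences of level between genes are uncertain. FPKM summed to between 480030 and 526338 per library. Xpo4 was at 15.02, 12.8, 16.2 and 14.5 FPKM in XPO4 libraries with TGFβ against 4.56, 7.16, 8.84 and 8.04 in empty-vector libraries with TGFβ, and at 17.4, 13.97 and 15.7 against 6.83, 9.33, 8.18 and 6.09 in untreated libraries. The groups did not overlap in either treatment (exact two-sided permutation p = 0.0286 with TGFβ and 0.0571 untreated, each the smallest the design allows). Of 10 stellate cell markers 7 averaged at least 1 FPKM, Vim at over 1921 FPKM in every library. Des was among them, with group means of only 1.11 to 2.19 FPKM. Those below were Pdgfrb, Reln, at most 0.295 FPKM in any library, and Lrat, listed at 0 in all 15. Of the 7, Acta2 was lower in XPO4 libraries without overlap, while the ranges of Vim overlapped. Acta2 stood at 15.9 ± 2.69 FPKM in XPO4 and 45.3 ± 3.82 in empty-vector libraries with TGFβ (SD, n = 4 each). Untreated, it stood at 8.03 ± 1.65 and 19.8 ± 1.22 FPKM (SD, n = 3 and 4). The hepatocyte list summed to at most 0.918 FPKM with Alb at 0. Of the cholangiocyte list Epcam was at 0, Krt19 at most 9.19 FPKM and Krt7 at most 4.70 FPKM. Spp1, which is also on that list and is made by other cells too, carried nearly all of its sum, at 392 ± 29.7 FPKM in XPO4 and 483 ± 30.5 in empty-vector libraries with TGFβ (SD, n = 4 each), and at 533 ± 9.94 and 589.7 ± 27.8 untreated (SD, n = 3 and 4).

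Libraries numbered 2 deviated alike in the 3 groups of 4 libraries (both TGFβ groups and untreated empty vector). In 5 of the 46 members tested replicate 2 was the lowest library in all 3 groups (Eif1ax, Eif3b, Eif4ebp1, Eif4h and Eif6). In 10 it was the highest in all 3 (Eif1a, Eif2s1, Eif2s2, Eif2s3x, Eif3j1, Eif3j2, Eif4a2, Eif4e, Eif4g2 and Eif5). Together these are 32.6% of members, beside 22.9% of all genes, and for each of the other replicate numbers the share of members was at most 4.35%. With these 3 libraries left out together, an alternative chosen after seeing the data, 0 of 46 members passed (limma) in each of the 5 comparisons. In that run 451 of all genes passed for XPO4 untreated and 374 with TGFβ. With all libraries kept these were 443 and 448 genes, 3.71% and 3.74% of all genes. A count of 0 of 46 is near such shares.

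No initiation factor gene passed the test in any of 5 comparisons. Of all genes 1.77 to 3.74% passed in the 4 comparisons of groups, so with 46 members tested a count of 0 is near the share of all genes. Levels differed widely between members, with 16 at 100 FPKM or more, 8 between 1 and 10 FPKM and 4 listed at 0. Among the 57 genes of 5 related lists 1 passed with XPO4 in each treatment. Of all genes 3.74% passed with TGFβ and 3.71% untreated, so this count is not above the share of all genes. The gene was Eif2ak2, which encodes PKR, the kinase of eIF2 that responds to double-stranded RNA. Eif2ak2 rose with XPO4 by 0.75 on the log2 scale with TGFβ and by 0.70 untreated. The untreated call held in the alternatives run, and the call with TGFβ was lost in most of its 17 alternatives, with adjusted p up to 0.0899 (limma). Eif3i, an eIF3 subunit gene, came nearest to the threshold, and was lower in XPO4 than in empty-vector libraries when untreated.

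**Figure D1:**
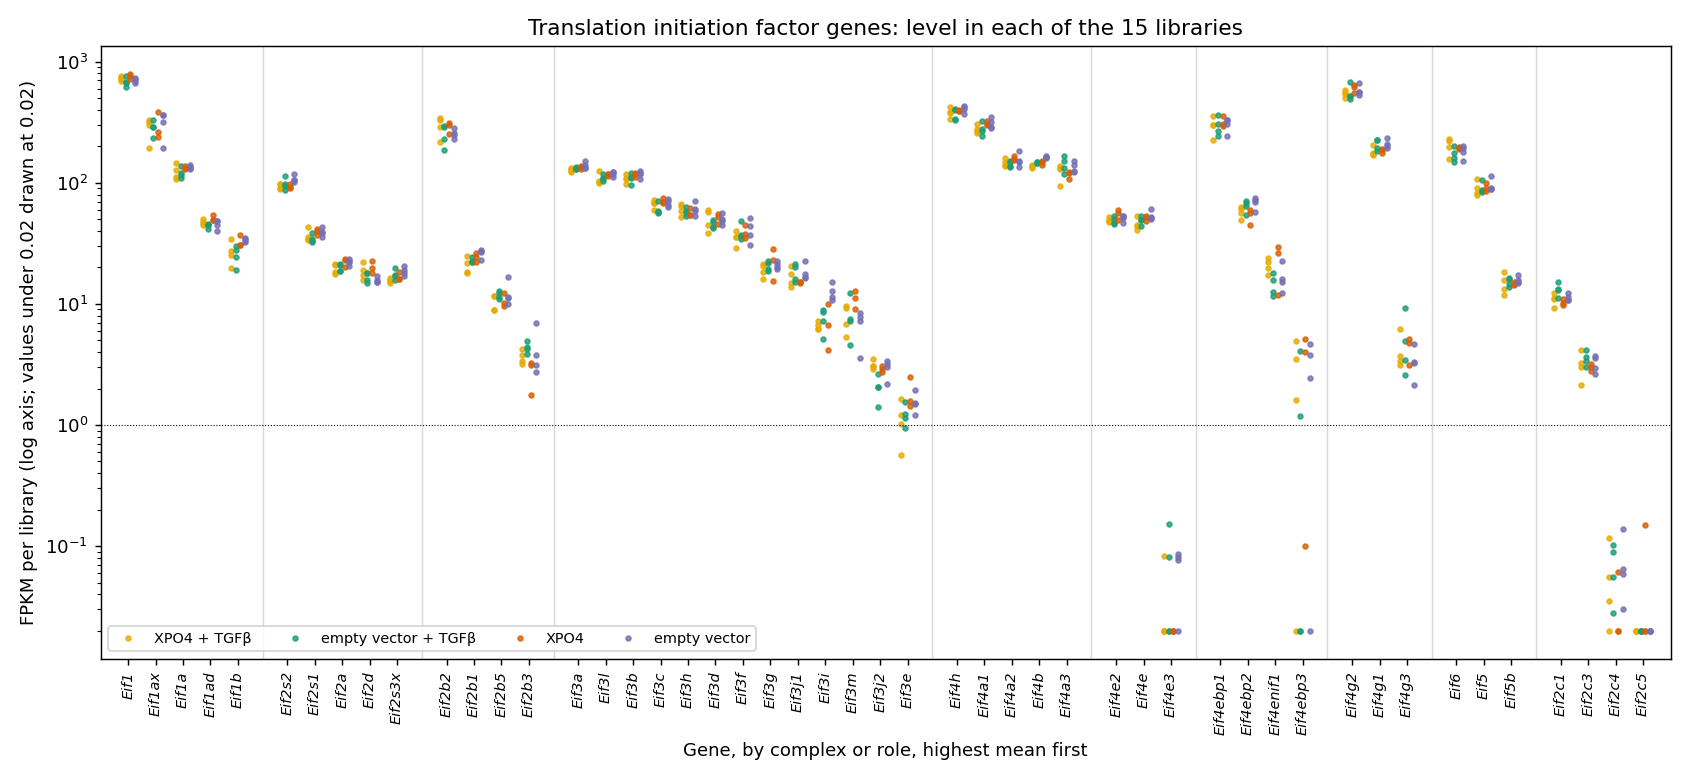
FPKM of each of the 49 members that had a value above 0, on a log axis, with 1 point per library and the 4 groups side by side within a gene. Values under 0.02 are drawn at 0.02, genes are ordered by role and mean, and the dotted line marks the minimum of 1 FPKM used for testing. Levels run over orders of magnitude between genes, from Eif1 (716 FPKM) down to Eif3e (1.396 FPKM) among the tested genes, while the 4 groups of a gene mostly overlap.

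Of the 53 members, 46 averaged at least 1 FPKM over the 15 libraries and were tested, 16 of them at 100 FPKM or more. The median of the 46 means was 49.3 FPKM, against 14.2 FPKM over the 11951 genes that averaged 1 FPKM or more. Listed at 0 in all 15 libraries were Eif2b4 (a subunit of eIF2B), Eif3k (a subunit of eIF3), Eif2s3y and Eif4e1b. An exact 0 in these tables need not mean that a gene is off. Among 81 ribosomal protein symbols 6 were listed at 0 throughout, and these include Rpl38 and Rps27, which encode ordinary parts of the ribosome. Eif2c4, Eif2c5 and Eif4e3 lay between 0 and 1 FPKM.

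The eIF1 and eIF1A genes, whose products keep the scanning ribosome accurate at the start codon, include Eif1, the highest of the 53 members by mean. Eif1 measured 687, 764, 718 and 735 FPKM in XPO4 libraries with TGFβ, 759.7, 672, 682 and 614 in empty-vector libraries with TGFβ, 795, 767 and 725 in untreated XPO4 libraries and 734, 722, 666 and 696 in untreated empty-vector libraries. Its paralogue Eif1b measured 19.7, 34.6, 27.2 and 25.1 FPKM in XPO4 libraries with TGFβ, 27.8, 30.2, 24.4 and 19.0 in empty-vector libraries with TGFβ, 30.5, 37.4 and 30.5 in untreated XPO4 libraries and 32.9, 34.2, 32.7 and 35.0 in untreated empty-vector libraries. Eif1 was thus on average 25.1 ± 4.59 times as high as Eif1b (SD over 15 libraries), and the order was the same in every library. Eif1ax, the X-linked eIF1A gene, measured 332, 317, 194 and 299 FPKM in XPO4 libraries with TGFβ, 332, 286, 234 and 289 in empty-vector libraries with TGFβ, 383, 240.1 and 265 in untreated XPO4 libraries and 365, 363, 195 and 321 in untreated empty-vector libraries. Eif1a, the second gene of that factor, measured 128, 112, 145 and 106 FPKM in XPO4 libraries with TGFβ, 115, 121, 138 and 109 in empty-vector libraries with TGFβ, 134, 139 and 131 in untreated XPO4 libraries and 134, 133, 141 and 131 in untreated empty-vector libraries. Eif1ax was higher than Eif1a in every library, with a mean ratio of 2.34 ± 0.554 (SD, n = 15), and the near-identical copies can share reads, so each level is uncertain. Eif1ax also spread widely within each group, and it is among the members whose replicate 2 was lowest in 3 groups.

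The eIF2 subunits, which carry the initiator tRNA, differed several-fold in listed mRNA level. Eif2s2, the β subunit, measured 88.5, 96.8, 97.8 and 90.2 FPKM in XPO4 libraries with TGFβ, 98.5, 93.7, 113 and 86.9 in empty-vector libraries with TGFβ, 92.8, 90.9 and 97.5 in untreated XPO4 libraries and 105, 101.1, 118 and 105 in untreated empty-vector libraries. Eif2s3x, the γ subunit gene on the X chromosome, measured 15.5, 14.8, 16.5 and 15.7 FPKM in XPO4 libraries with TGFβ, 17.1, 17.3, 19.9 and 15.9 in empty-vector libraries with TGFβ, 18.3, 16.2 and 15.99 in untreated XPO4 libraries and 18.1, 18.9, 20.7 and 16.9 in untreated empty-vector libraries, while its Y-linked copy Eif2s3y was listed at 0 throughout. Eif2s1, the α subunit that stress kinases phosphorylate, measured 35.9, 34.4, 42.8 and 33.4 FPKM in XPO4 libraries with TGFβ, 34.1, 33.2, 38.8 and 32.6 in empty-vector libraries with TGFβ, 39.8, 41.2 and 37.0 in untreated XPO4 libraries and 38.6, 38.9, 43.1 and 35.7 in untreated empty-vector libraries. The α, β and γ subunits form one complex in equal copies, and their mRNA means were 37.3, 98.4 and 17.2 FPKM over the 15 libraries. Eif2a encodes a separate protein, eIF2A, that can also bring initiator tRNA to the ribosome. Eif2a measured 20.9, 17.6, 21.2 and 18.5 FPKM in XPO4 libraries with TGFβ, 21.4, 18.6, 20.9 and 18.6 in empty-vector libraries with TGFβ, 23.1, 23.6 and 19.99 in untreated XPO4 libraries and 23.5, 20.6, 22.1 and 22.7 in untreated empty-vector libraries.

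The 5 subunits of eIF2B differed widely in listed mRNA level. Eif2b2, the β subunit, measured 329, 291, 218 and 339.9 FPKM in XPO4 libraries with TGFβ, 293, 291, 229 and 186 in empty-vector libraries with TGFβ, 254, 299 and 313 in untreated XPO4 libraries and 285, 248, 229 and 259 in untreated empty-vector libraries. Eif2b1, the α subunit, measured 18.0, 24.7, 21.6 and 18.4 FPKM in XPO4 libraries with TGFβ, 22.8, 22.0, 24.3 and 22.3 in empty-vector libraries with TGFβ, 26.5, 22.0 and 24.4 in untreated XPO4 libraries and 26.8, 22.9, 28.0 and 27.3 in untreated empty-vector libraries. Eif2b3, the γ subunit, measured 4.24, 3.17, 3.37 and 3.76 FPKM in XPO4 libraries with TGFβ, 3.88, 4.44, 4.97 and 4.22 in empty-vector libraries with TGFβ, 3.25, 1.78 and 3.15 in untreated XPO4 libraries and 3.11, 2.72, 7.004 and 3.78 in untreated empty-vector libraries. The mean of Eif2b2, 271 FPKM, stood above those of Eif2b1 (23.5), Eif2b5 (11.3) and Eif2b3 (3.79) without overlap between libraries, and Eif2b4 was listed at 0. These subunits form a single complex. Whether their listed levels reflect the mRNA or its estimate was not tested.

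The 14 genes of eIF3, the largest initiation factor, ran from Eif3k, listed at 0, to Eif3a. Eif3a, the scaffold subunit, measured 133, 122, 131 and 126 FPKM in XPO4 libraries with TGFβ, 131, 133, 136 and 130.1 in empty-vector libraries with TGFβ, 137, 130.3 and 135 in untreated XPO4 libraries and 141, 133, 151.4 and 132 in untreated empty-vector libraries. Its coefficient of variation over the 15 libraries was 4.96%, against 35.9% for Eif3i and 32.3% for Eif3m. Eif3l (113 FPKM) and Eif3b (113 FPKM) came next to Eif3a by mean. Eif3c, Eif3h, Eif3d, Eif3f and Eif3g followed, with means between 20.6 and 66.5 FPKM. At the low end Eif3e, which encodes a core subunit, measured 0.564, 1.63, 1.02 and 1.22 FPKM in XPO4 libraries with TGFβ, 1.54, 1.14, 1.23 and 0.946 in empty-vector libraries with TGFβ, 1.58, 2.498 and 1.43 in untreated XPO4 libraries and 1.94, 1.21, 1.49 and 1.51 in untreated empty-vector libraries. Eif3j1 measured 17.6, 14.8, 20.5 and 13.8 FPKM in XPO4 libraries with TGFβ, 15.2, 20.3, 21.5 and 16.1 in empty-vector libraries with TGFβ, 14.9, 15.1 and 15.2 in untreated XPO4 libraries and 17.6, 16.4, 22.5 and 16.6 in untreated empty-vector libraries. Its paralogue Eif3j2 was lower in every library, and both encode the loosely bound j subunit. The exon sequence of Eif3j2, 2379 bases, fills its whole span. Such copies can share reads, so the level of Eif3j2 is uncertain. The ratio of Eif3j1 to Eif3j2 was 5.30 ± 0.801 in XPO4 and 9.17 ± 1.79 in empty-vector cells with TGFβ (SD, n = 4 each), and 5.20 ± 0.265 and 6.33 ± 1.29 untreated (SD, n = 3 and 4).

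The helicase eIF4A and its partners eIF4B and eIF4H unwind the 5′ end of the mRNA, and all 5 of their genes averaged over 130 FPKM. Eif4h measured 373, 420.2, 335 and 383 FPKM in XPO4 libraries with TGFβ, 405, 399.7, 328 and 337 in empty-vector libraries with TGFβ, 394, 389 and 396 in untreated XPO4 libraries and 420.3, 427, 369 and 403 in untreated empty-vector libraries. Eif4a1, the main helicase gene, measured 268, 304, 257 and 277 FPKM in XPO4 libraries with TGFβ, 325, 278, 269.7 and 242 in empty-vector libraries with TGFβ, 299.9, 322 and 304 in untreated XPO4 libraries and 350.5, 319, 291 and 283 in untreated empty-vector libraries. Eif4a2 measured 148, 136, 160.9 and 141 FPKM in XPO4 libraries with TGFβ, 138, 135, 152.4 and 149.7 in empty-vector libraries with TGFβ, 164.9, 153.3 and 157.1 in untreated XPO4 libraries and 150.3, 134, 182 and 148 in untreated empty-vector libraries. The ratio of Eif4a1 to Eif4a2 was 1.90 ± 0.267 in XPO4 and 1.95 ± 0.326 in empty-vector cells with TGFβ (SD, n = 4 each), and 1.95 ± 0.144 and 2.05 ± 0.371 untreated (SD, n = 3 and 4). Eif4a3, which works in the exon junction complex and not in initiation, measured 131, 133, 94.9 and 138 FPKM in XPO4 libraries with TGFβ, 151.7, 119, 133 and 165.9 in empty-vector libraries with TGFβ, 123, 108 and 121 in untreated XPO4 libraries and 151.3, 122, 139.9 and 125 in untreated empty-vector libraries. A pseudogene listed as Eif4a-ps4 averaged 13.6 FPKM, so reads of the eIF4A genes could be split.

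Among cap-binding genes, Eif4e and Eif4e2 had means within each other's spread. Eif4e, the cap-binding subunit of the eIF4F complex, measured 44.4, 43.6, 53.2 and 40.7 FPKM in XPO4 libraries with TGFβ, 48.8, 43.7, 53.1 and 49.5 in empty-vector libraries with TGFβ, 52.3, 52.9 and 48.8 in untreated XPO4 libraries and 51.4, 50.3, 61.0 and 51.8 in untreated empty-vector libraries. Eif4e2, whose product 4EHP binds the cap without supporting initiation, measured 47.9, 49.4, 47.8 and 51.9 FPKM in XPO4 libraries with TGFβ, 50.5, 53.6, 46.9 and 46.1 in empty-vector libraries with TGFβ, 56.6, 59.5 and 49.3 in untreated XPO4 libraries and 46.8, 53.4, 53.1 and 51.1 in untreated empty-vector libraries. Their ratio, Eif4e2 over Eif4e, was 1.03 ± 0.124 (SD, n = 15). Eif4e3, which a protein-coding gene (Gm20696) overlaps on the same strand, has an uncertain level. It was at most 0.153 FPKM in any library and listed at 0 in 9 of the 15. It measured 0.0828, 0, 0 and 0 FPKM in XPO4 libraries with TGFβ, 0.0811, 0, 0.153 and 0 in empty-vector libraries with TGFβ, 0, 0 and 0 in untreated XPO4 libraries and 0.0813, 0, 0.0763 and 0.0867 in untreated empty-vector libraries.

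The scaffold eIF4G joins the cap complex to eIF3. Eif4g2 encodes a form that lacks the eIF4E-binding part and serves cap-independent initiation, and it was the highest scaffold gene, at 563, 539, 584 and 503 FPKM in XPO4 libraries with TGFβ, 525, 493, 684 and 523 in empty-vector libraries with TGFβ, 614, 647 and 549 in untreated XPO4 libraries and 563, 532, 661 and 561 in untreated empty-vector libraries. Eif4g1, the main scaffold, measured 204, 172, 177 and 171 FPKM in XPO4 libraries with TGFβ, 184, 225, 195 and 227 in empty-vector libraries with TGFβ, 186, 175 and 188 in untreated XPO4 libraries and 210.2, 234, 203 and 193 in untreated empty-vector libraries. Eif4g3 measured 3.71, 3.40, 6.23 and 3.12 FPKM in XPO4 libraries with TGFβ, 4.98, 3.46, 2.59 and 9.26 in empty-vector libraries with TGFβ, 3.16, 5.09 and 4.74 in untreated XPO4 libraries and 3.29, 2.14, 3.27 and 4.66 in untreated empty-vector libraries. Eif4g2 was higher than Eif4g1 in every library, by a factor of 2.93 ± 0.448 (SD, n = 15), and Eif4g1 higher than Eif4g3 by a factor of 53.4 ± 21.3.

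The highest of the eIF4E inhibitor genes was Eif4ebp1, whose product 4E-BP1 releases eIF4E when mTORC1 phosphorylates it. Eif4ebp1 measured 297, 359, 225 and 299.7 FPKM in XPO4 libraries with TGFβ, 361, 307, 245 and 267 in empty-vector libraries with TGFβ, 304, 354 and 296 in untreated XPO4 libraries and 333, 331, 243 and 305 in untreated empty-vector libraries. Eif4ebp2 measured 60.9, 48.9, 63.6 and 56.1 FPKM in XPO4 libraries with TGFβ, 54.7, 67.5, 64.3 and 70.1 in empty-vector libraries with TGFβ, 59.4, 44.9 and 55.9 in untreated XPO4 libraries and 71.5, 75.0, 69.9 and 57.4 in untreated empty-vector libraries. Eif4ebp1 was 5.07 ± 1.33 times as high as Eif4ebp2 (SD, n = 15). Eif4ebp3 measured 4.97, 1.61, 3.48 and 0 FPKM in XPO4 libraries with TGFβ, 0, 1.19, 4.07 and 0 in empty-vector libraries with TGFβ, 4.002, 0.101 and 5.14 in untreated XPO4 libraries and 0, 2.44, 3.75 and 4.64 in untreated empty-vector libraries. A readthrough gene covers Eif4ebp3 on the same strand, and its values jumped between 0 and 5.14 FPKM within groups, so its level is uncertain.

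The late factors act when the subunits join. Eif6, which keeps the large subunit from joining too early, measured 198, 228, 158.4 and 221 FPKM in XPO4 libraries with TGFβ, 199.95, 177, 149 and 160.4 in empty-vector libraries with TGFβ, 192, 189.6 and 199 in untreated XPO4 libraries and 192, 203, 150.0 and 179 in untreated empty-vector libraries. Eif5b, the GTPase of subunit joining, measured 15.7, 11.7, 18.2 and 13.4 FPKM in XPO4 libraries with TGFβ, 13.7, 16.5, 15.9 and 14.6 in empty-vector libraries with TGFβ, 14.3, 15.1 and 14.6 in untreated XPO4 libraries and 14.9, 15.8, 17.4 and 15.02 in untreated empty-vector libraries. Eif5, which makes eIF2 hydrolyse its GTP at the start codon, averaged 91.7 FPKM. The Argonaute gene Eif2c1 measured 12.3, 9.27, 11.3 and 10.9 FPKM in XPO4 libraries with TGFβ, 11.2, 13.4, 15.02 and 13.1 in empty-vector libraries with TGFβ, 10.2, 11.1 and 9.88 in untreated XPO4 libraries and 12.2, 10.7, 11.4 and 10.8 in untreated empty-vector libraries. Eif2c5 had a value above 0 in a single library, 0.149 FPKM in untreated XPO4 replicate 0.

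XPO4 overexpression in untreated cells came with no called initiation factor gene. Differences are of log2(FPKM + 1), XPO4 minus empty vector, a scale that understates the difference of low genes. Of 46 members tested, 0 passed at an adjusted p under 0.05 (limma), where 443 of 11926 genes passed, 3.71% of all genes (276 genes without XPO4 replicate 0 and 289 without XPO4 replicate 1). At an unadjusted p under 0.05, 2 members were higher and 5 lower, 15.2% of members together beside 15.2% of all genes (8.2% of all genes higher and 7% lower). The member median was -0.02, with 28 of 46 members below 0 (60.9% beside 51% of all genes). On the TPM scale the median was -0.06 and after quantile normalization -0.07, each with 30 members below 0, where the medians of all genes were -0.04 and -0.03. In 41 of 46 members the 95% interval of the difference lay within 1 log2 unit of 0, 89.1% beside 89.8% of all genes. The other 5 were Eif3i, Eif3m, Eif2b3, Eif4enif1 and Eif4ebp3. Each value is an average over the cells of a library, so fewer expressing cells and less RNA per cell cannot be told apart.

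**Figure D2:**
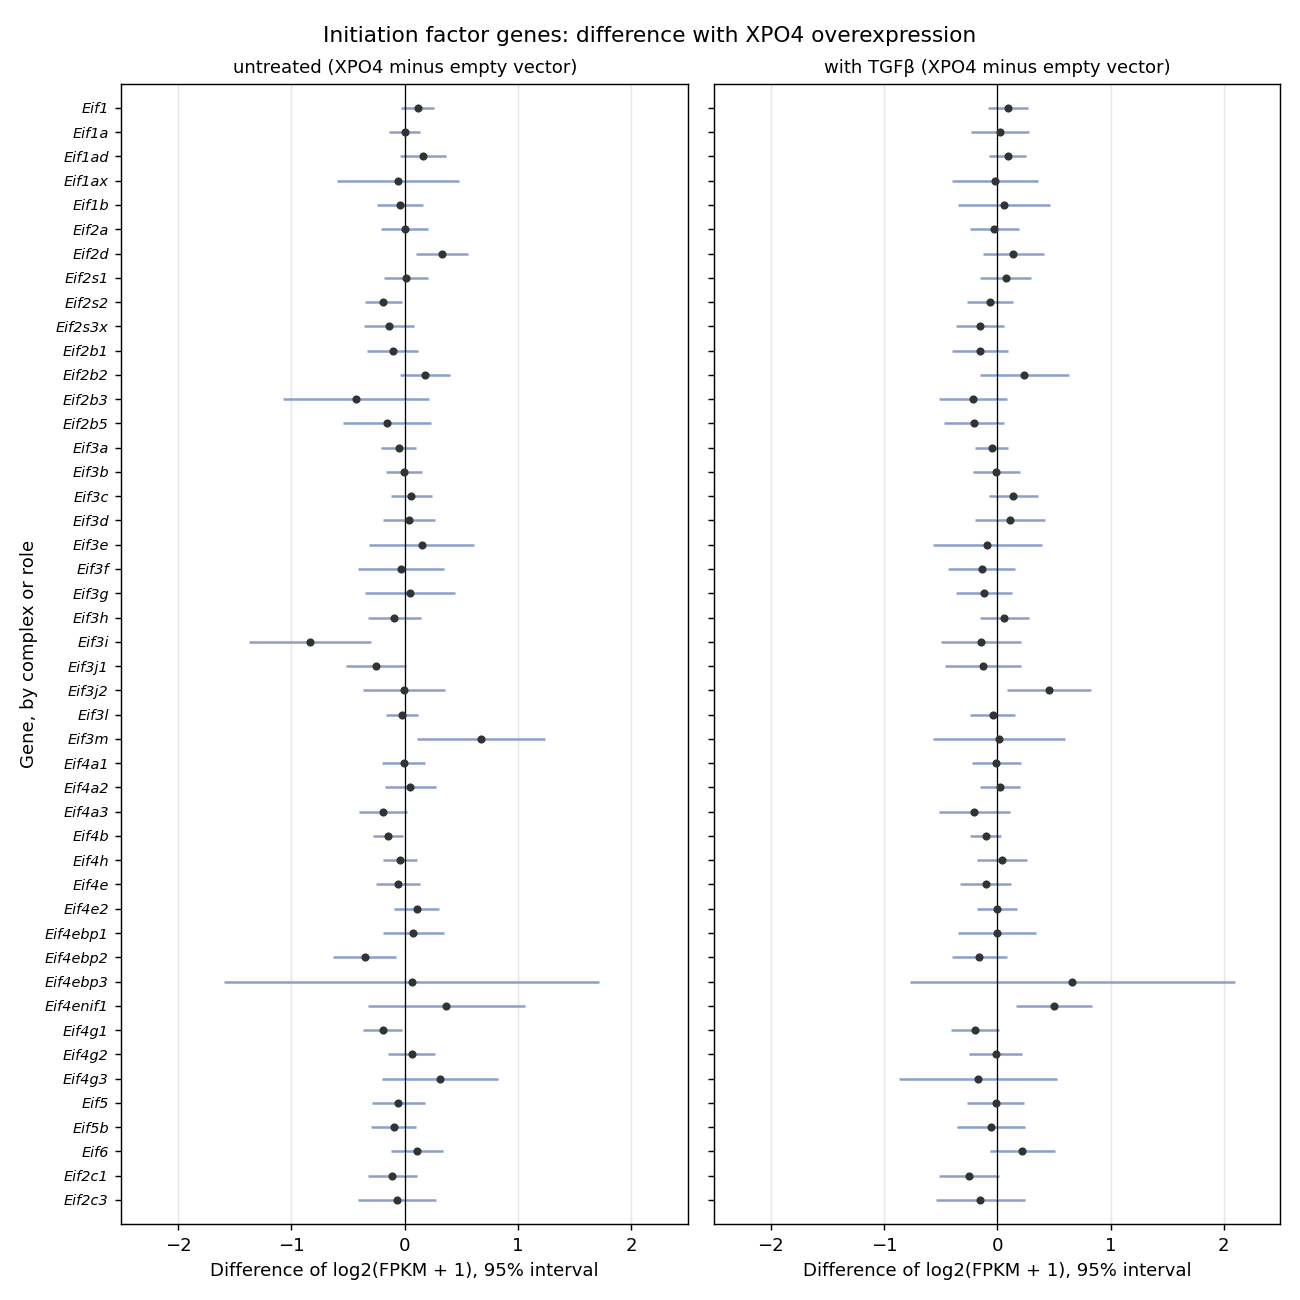
Difference of log2(FPKM + 1) between XPO4 and empty-vector libraries for the 46 members tested, untreated on the left (n = 3 and 4) and with TGFβ on the right (n = 4 each). Points are limma estimates and bars 95% intervals, by role. Most points lie within 0.5 of 0, and Eif3i (-0.83) and Eif3m (0.67) stand furthest out in untreated cells, and Eif4ebp3 (0.66) with TGFβ.

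Eif3i had the smallest p among members in untreated cells. The gene encodes a WD-repeat subunit of eIF3 and lies on mm10 at chromosome 4, 129591960 to 129600648. It measured 6.71, 4.13 and 9.94 FPKM in XPO4 libraries against 11.4, 12.8, 10.9 and 15.2 in empty-vector libraries. All 3 XPO4 values lay below all 4 empty-vector values, though the XPO4 libraries also spread widely among themselves. The difference was -0.83 (SE 0.24, 95% interval -1.37 to -0.30) and did not pass (limma adjusted p = 0.115). It passed when all 4 groups shared 1 fit (limma adjusted p = 0.0413) and without XPO4 replicate 2 (-1.10, limma adjusted p = 0.0293), and over the alternatives the adjusted p ran from 0.0293 to 0.314.

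Eif3m encodes another eIF3 subunit (chromosome 2, 104999656 to 105017080) and differed in the opposite direction. It measured 12.7, 11.2 and 9.10 FPKM in XPO4 libraries against 8.41, 7.26, 3.55 and 7.81 in empty-vector libraries, again without overlap. The difference was 0.67 (95% interval 0.11 to 1.24, limma adjusted p = 0.235). Over the alternatives it ran from 0.44 to 0.79, with limma adjusted p from 0.139 to 0.489. The lowest was without empty-vector replicate 2, the library at 3.55 FPKM. A protein-coding gene, Ccdc73, overlaps Eif3m on the other strand. Libraries were made to keep strand, but no source used here says whether the counting did, so levels of such overlapping genes are uncertain.

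Eif2d encodes eIF2D, which delivers tRNA to the ribosome without GTP and acts in recycling and reinitiation (chromosome 1, 131153181 to 131187658). It measured 19.6, 22.5 and 17.9 FPKM in XPO4 libraries against 15.02, 17.04, 15.7 and 15.1 in empty-vector libraries, and the groups did not overlap. The difference was 0.33 (95% interval 0.10 to 0.55, limma adjusted p = 0.143). Rassf5 overlaps it on the other strand. Eif4ebp2 measured 59.4, 44.9 and 55.9 FPKM in XPO4 libraries against 71.5, 75.0, 69.9 and 57.4 in empty-vector libraries. Here 1 XPO4 value, 59.4, lay above the lowest empty-vector value, 57.4. The difference was -0.35 (95% interval -0.63 to -0.08, limma adjusted p = 0.198).

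Groups did not overlap in 8 of 46 members, 17.4%, beside 16.2% of all genes (8.23% higher and 7.93% lower). Eif1ad, Eif2d and Eif3m were higher in all XPO4 libraries, and Eif2s2, Eif3i, Eif3j1, Eif4b and Eif4g1 lower. Eif4b, the helicase cofactor, stood at 147 ± 5.73 FPKM in XPO4 and 162.6 ± 2.42 in empty-vector libraries (SD, n = 3 and 4), a difference of -0.15 (limma adjusted p = 0.260). Eif4g1 stood at 183 ± 7.41 FPKM against 210.1 ± 17.2 (SD, n = 3 and 4), a difference of -0.19 (limma adjusted p = 0.268). Eif2s2 stood at 93.8 ± 3.39 FPKM against 107 ± 7.18 (SD, n = 3 and 4), a difference of -0.19 (limma adjusted p = 0.244). By role, medians ran from -0.13 for the 4 tested eIF2B subunits to 0.07 for the 4 genes of 4E-BPs and 4E-T.

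With TGFβ present, XPO4 cells again showed no called member. Of 46 members 0 passed (limma), where 448 of 11976 genes passed, 3.74% of all genes. At an unadjusted p under 0.05, 2 members were higher and 0 lower, 4.35% of members beside 14% of all genes (7.66% higher). The member median was -0.02 with 28 of 46 below 0 beside 51% of all genes, and it was -0.07 with 33 below 0 on the TPM scale and -0.08 with 32 below 0 after quantile normalization, where the medians of all genes were -0.06 and -0.03. In 45 of 46 members the 95% interval lay within 1 log2 unit of 0, Eif4ebp3 being the other, beside 90.5% of all genes. Groups did not overlap in 2 members, 4.35%, beside 10.2% of all genes.

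Eif4enif1 had the smallest p with TGFβ. It encodes 4E-T, a shuttling protein that binds eIF4E and carries it to the nucleus and to processing bodies (chromosome 11, 3202392 to 3244588). It measured 23.8, 22.2, 19.97 and 17.4 FPKM in XPO4 libraries against 11.6, 15.9, 18.0 and 12.6 in empty-vector libraries, and 1 empty-vector value, 18.0, lay above the lowest XPO4 value, 17.4. The difference was 0.50 (95% interval 0.17 to 0.84, limma adjusted p = 0.122). In untreated cells it measured 11.8, 26.6 and 29.6 FPKM in XPO4 libraries against 12.3, 15.03, 22.5 and 16.2 in empty-vector libraries, where the groups overlapped widely and the difference was 0.37 (95% interval -0.33 to 1.06). Drg1 overlaps Eif4enif1 on the other strand.

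Eif3j2 came next. It measured 2.91, 3.10, 3.48 and 3.10 FPKM in XPO4 libraries against 2.06, 2.07, 2.65 and 1.42 in empty-vector libraries, without overlap. The difference was 0.46 (95% interval 0.09 to 0.82, limma adjusted p = 0.216). Sharing of reads between Eif3j2 and Eif3j1 was not tested. Untreated, Eif3j2 measured 2.73, 3.07 and 2.92 FPKM against 2.20, 3.02, 3.35 and 3.20, a difference of -0.004. Eif4b again had all XPO4 values below the empty-vector values, at 141, 136, 139 and 132 FPKM against 149, 145, 147 and 147, with a difference of -0.10 (95% interval -0.24 to 0.04, limma adjusted p = 0.544). Eif2c1 differed by -0.25 (limma adjusted p = 0.397) and Eif4g1 by -0.19 (limma adjusted p = 0.410), with overlapping libraries in both.

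**Figure D3:**
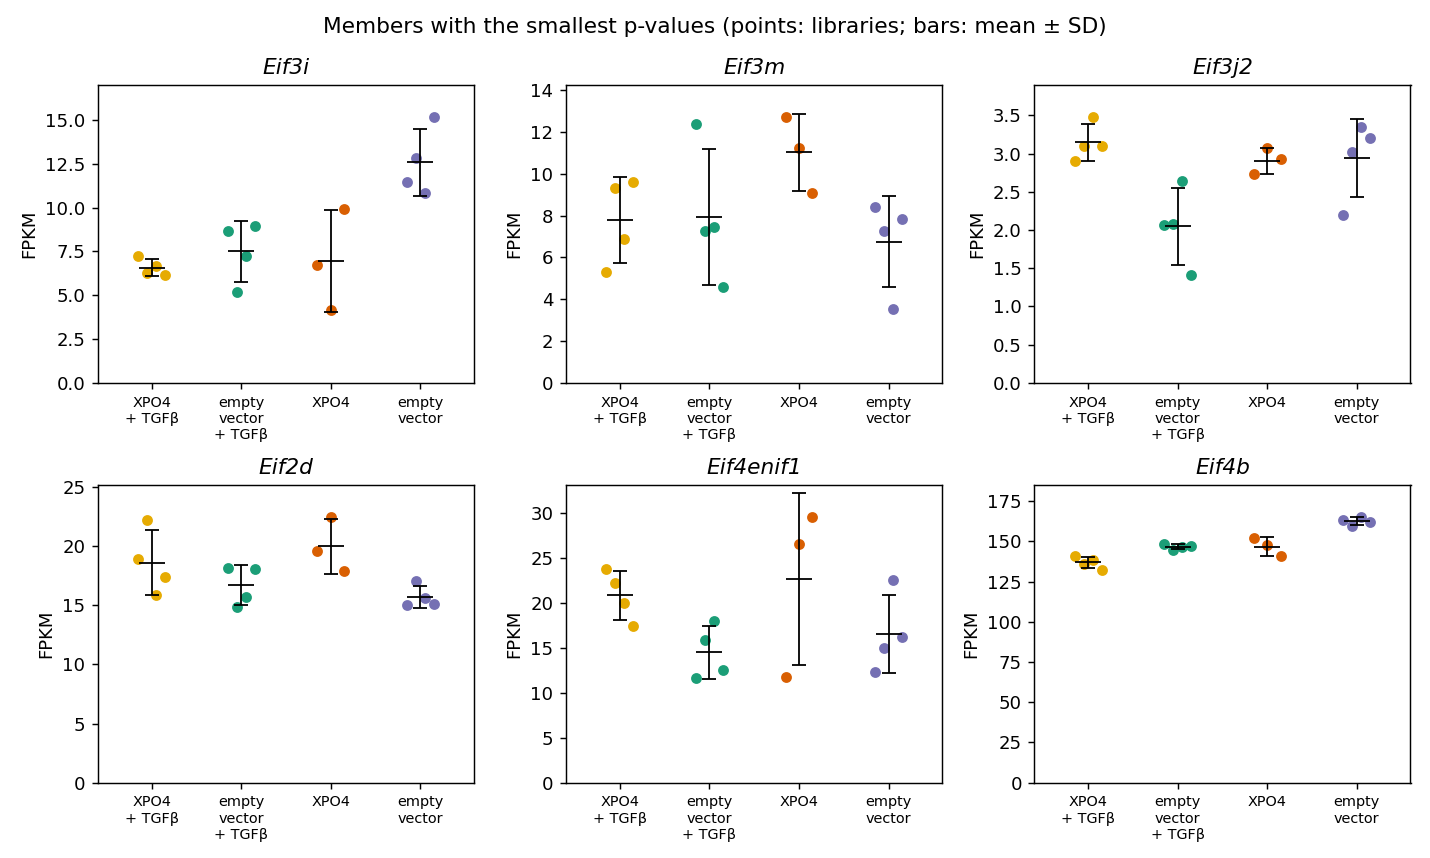
FPKM of 6 members that had small p-values in 1 or more comparisons, with 1 point per library and the mean ± SD of each group (n = 4, 4, 3 and 4 from left to right). Eif3i was highest in untreated empty-vector libraries (10.9 to 15.2 FPKM) and Eif3j2 lowest in empty-vector libraries with TGFβ (1.42 to 2.65 FPKM). The p-values of these genes did not pass after adjustment.

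The response to TGFβ was compared within each construct. The treated and untreated libraries sit in 2 separate deposited tables, so treatment and table cannot be told apart. In XPO4 cells 0 of 46 members passed (limma) and 0 had an unadjusted p under 0.05, where 211 of 11951 genes passed, 1.77% of all genes (130 genes without untreated XPO4 replicate 0 and 118 without replicate 1), and 10.1% had an unadjusted p under 0.05. In empty-vector cells 0 of 46 passed, where 212 genes passed, again 1.77% (121, 140 and 108 genes without untreated replicate 0, untreated replicate 3 and treated replicate 1). At an unadjusted p under 0.05, 4 members were lower and 0 higher in empty-vector cells, 8.7% of members beside 11.5% of all genes (5.68% lower).

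Members leaned below 0 with TGFβ in both constructs, each by a small amount. In XPO4 cells 35 of 46 members, 76.1%, had a difference below 0 beside 51.6% of all genes, with a median of -0.08 beside -0.01. In empty-vector cells 39 of 46, 84.8%, were below 0 beside 52.1% of all genes, with a median of -0.08 beside -0.01. Rescaled to the TPM scale the counts were 33 and 35 with medians of -0.07 and -0.06, beside 0.007 and 0.015 for all genes. After quantile normalization they were 33 and 35 with medians of -0.07 and -0.04, beside -0.002 and -0.003. Without rescaling, medians of the 5 related lists ran from -0.17 to 0.007 in XPO4 and from -0.08 to 0.06 in empty-vector cells. All 5 genes with symbols starting Eif1, Eif1ad among them, were below 0 in both constructs. Of 13 tested eIF3 genes 9 were below 0 in XPO4 and 12 in empty-vector cells. Members are measured in the same libraries and are not independent, so these counts carry no p. Members also had a higher median level than all genes tested, 49.3 against 14.2 FPKM. Whether level has a part in the lean was not tested. Added up, members made 0.967 ± 0.0191% of all FPKM in XPO4 and 0.993 ± 0.0274% in empty-vector cells with TGFβ (SD, n = 4 each), and 1.01 ± 0.00983% and 1.03 ± 0.0176% untreated (SD, n = 3 and 4).

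**Figure D4:**
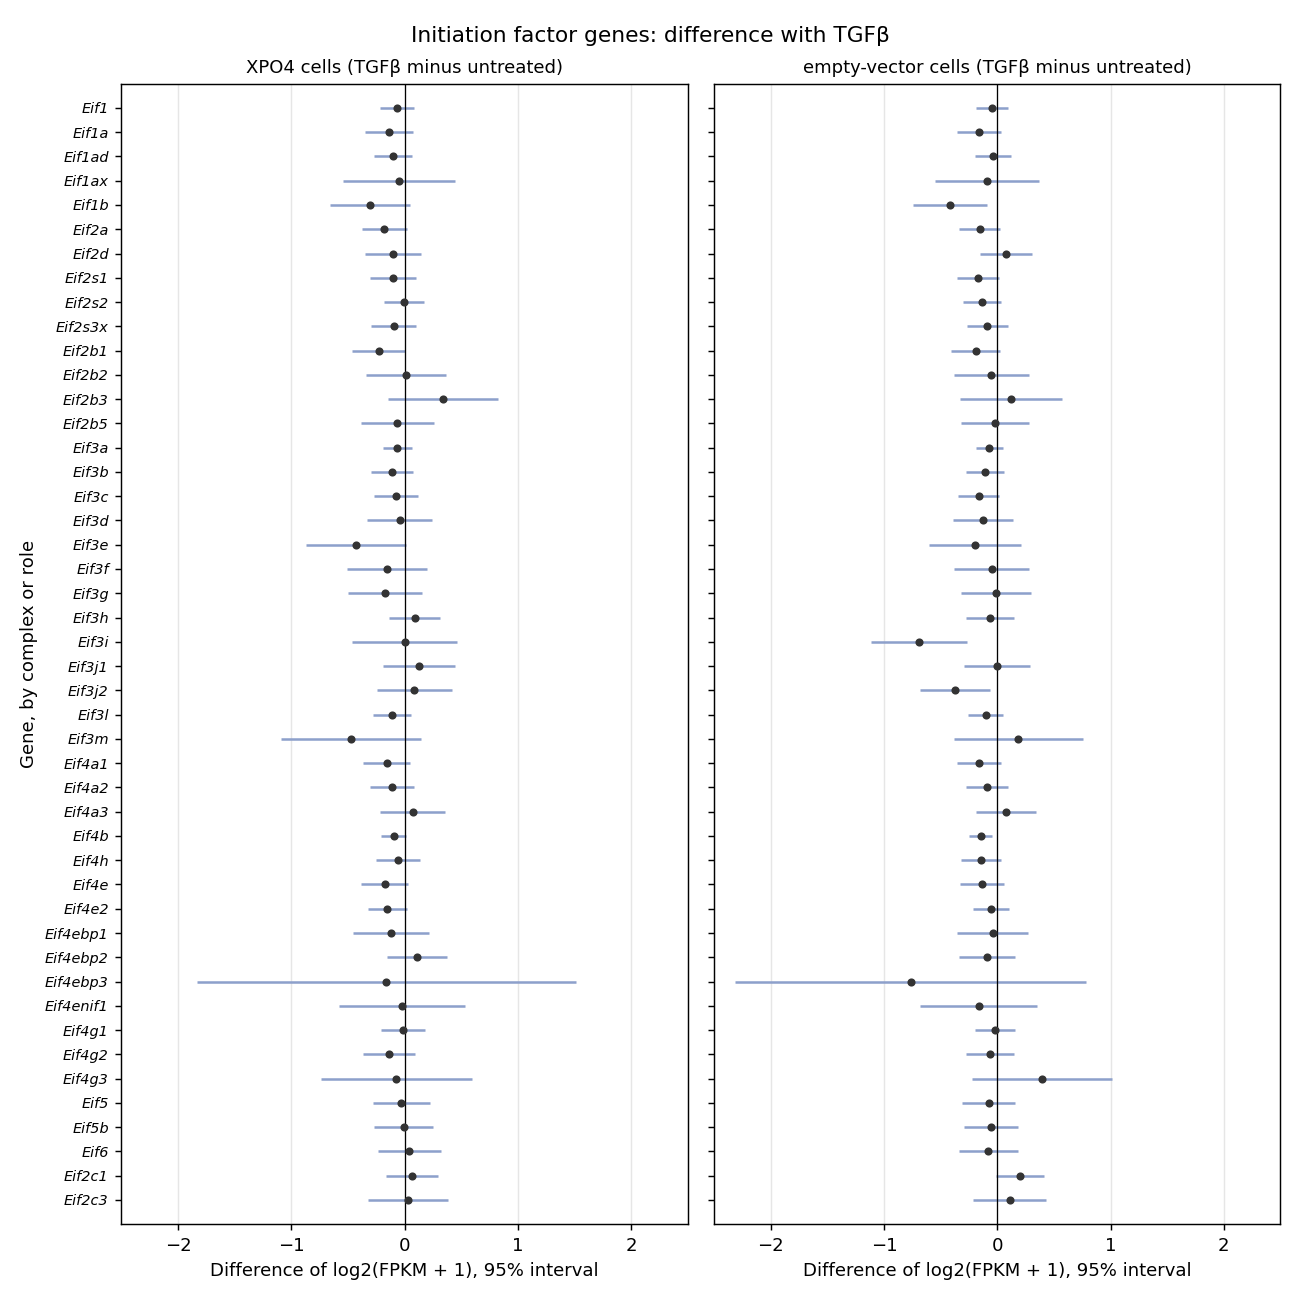
Difference of log2(FPKM + 1) between TGFβ-treated and untreated libraries for the 46 members tested, in XPO4 cells on the left (n = 4 and 3) and empty-vector cells on the right (n = 4 each). Points are limma estimates and bars 95% intervals, by role. Of the points 35 lie below 0 on the left and 39 on the right, mostly by less than 0.2, with Eif3i (-0.69) and Eif4ebp3 (-0.76) further out on the right.

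In empty-vector cells the smallest p was again that of Eif3i. It measured 8.64, 5.16, 7.22 and 8.96 FPKM with TGFβ against 11.4, 12.8, 10.9 and 15.2 untreated, without overlap. The difference was -0.69 (95% interval -1.12 to -0.26, limma adjusted p = 0.121), and without untreated XPO4 replicate 1, which enters the shared spread, the limma adjusted p was 0.0494 within a range of 0.0494 to 0.329 over 23 alternatives. In XPO4 cells Eif3i measured 7.21, 6.25, 6.69 and 6.16 FPKM with TGFβ against 6.71, 4.13 and 9.94 untreated, and the treated values fell inside the untreated range (difference 0.00051, 95% interval -0.46 to 0.46). The untreated empty-vector group thus stood above the other groups without overlap.

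Eif4b measured 149, 145, 147 and 147 FPKM with TGFβ against 163.5, 159.7, 165.4 and 161.8 untreated in empty-vector cells, without overlap (difference -0.15, 95% interval -0.25 to -0.05, limma adjusted p = 0.185). Eif1b measured 27.8, 30.2, 24.4 and 19.0 FPKM with TGFβ against 32.9, 34.2, 32.7 and 35.0 untreated, also without overlap (difference -0.42, 95% interval -0.74 to -0.09, limma adjusted p = 0.264). These 2 and Eif3i were the 3 members without overlap in empty-vector cells, all lower, 6.52% beside 7.82% of all genes (3.57% lower), and in XPO4 cells there were 0, beside 9.85%. The corresponding XPO4 differences were -0.10 for Eif4b (limma adjusted p = 0.562) and -0.31 for Eif1b (limma adjusted p = 0.578). The smallest p-values in XPO4 cells belonged to Eif2b1 (-0.23), Eif3e (-0.43), Eif2a (-0.18) and Eif4e2 (-0.16), with limma adjusted p between 0.505 and 0.559. Intervals lay within 1 log2 unit of 0 for 44 members in XPO4 cells, 95.7% beside 91% of all genes, and for 43 in empty-vector cells, 93.5% beside 92.8%.

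Whether the XPO4 difference depended on TGFβ was tested as an interaction, the difference with TGFβ minus the difference untreated. Of 11951 genes 0 passed (limma), 0% of all genes, and 344 had an unadjusted p under 0.05 (1 gene passed without untreated XPO4 replicate 1, without treated empty-vector replicate 1 or 2, and without the 3 libraries numbered 2 together). Among members 0 passed and 2 had an unadjusted p under 0.05, 4.35% beside 2.88% of all genes, while 23 of 46 were below 0, 50% beside 49.3%. The 2 genes were Eif3i at 0.69 (95% interval 0.06 to 1.32) and Eif3j2 at 0.46 (95% interval 0.01 to 0.91), both with a limma adjusted p of 0.9998. Eif3m followed at -0.66 (95% interval -1.502 to 0.18) and Eif2d at -0.18 (95% interval -0.52 to 0.15). In 42 of 46 members the interval of the interaction lay within 1 log2 unit of 0, 91.3% beside 84.7% of all genes.

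Genes that act on the initiation factors were counted in 5 related lists. Among 9 genes of eIF2 kinases and phosphatase, 1 rose and 0 fell with XPO4 in each treatment, beside 2.89% of all genes called higher with TGFβ and 2.85% untreated. The gene was Eif2ak2, which encodes PKR, a kinase that phosphorylates eIF2α when it binds double-stranded RNA and whose gene is known to be induced by interferon. Eif2ak2 measured 84.3, 57.6, 93.2 and 67.8 FPKM in XPO4 libraries against 36.2, 45.6, 51.4 and 43.8 in empty-vector libraries with TGFβ. Untreated, it measured 69.6, 70.2 and 72.2 FPKM in XPO4 libraries against 42.2, 43.5, 49.5 and 38.0 in empty-vector libraries. Neither pair of groups overlapped, and untreated XPO4 libraries were the tightest.

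The Eif2ak2 difference was 0.75 with TGFβ (95% interval 0.40 to 1.10, limma adjusted p = 0.0267) and 0.70 untreated (95% interval 0.49 to 0.91, limma adjusted p = 0.00268). The untreated call held in each alternative run, with adjusted p from 0.00112 to 0.0315. The call with TGFβ ended without XPO4 replicate 0, 2 or 3 (adjusted p = 0.0899, 0.0571 and 0.0513), without empty-vector replicate 0, 1 or 3 (0.0757, 0.0671 and 0.0769), without replicate 2 of both groups (0.0594), with no minimum level (0.0601) and on the TPM scale (0.0638), within a limma range of 0.0026 to 0.0899. Macrophage markers summed to 5.92 to 9.06 FPKM in XPO4 and 9.38 to 11.4 in empty-vector libraries with TGFβ, and to 8.38 to 9.95 and 10.2 to 12.3 untreated, with 3 of 5 measured markers at 1 FPKM or more and Cd5l at 0. Their part in the Eif2ak2 difference was not tested. With TGFβ against untreated, Eif2ak2 differed by 0.07 in XPO4 and 0.03 in empty-vector cells, and the interaction was 0.05 (95% interval -0.38 to 0.48).

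The other eIF2 kinases did not pass. Eif2ak1 (HRI, the haem-regulated kinase) stood at 24.4 ± 1.73 FPKM in XPO4 and 24.1 ± 1.36 in empty-vector cells with TGFβ (SD, n = 4 each), and at 27.3 ± 1.46 and 26.1 ± 1.61 untreated (SD, n = 3 and 4). Eif2ak3 (PERK, the kinase of the endoplasmic reticulum) differed by -0.26 with TGFβ and -0.19 untreated, and Eif2ak4 (GCN2, which senses uncharged tRNA) by 0.09 and -0.44. Ppp1r15a, the GADD34 subunit that returns eIF2α to its unphosphorylated form, measured 61.5, 64.5, 55.7 and 79.4 FPKM in XPO4 against 53.6, 47.8, 36.8 and 43.7 in empty-vector libraries with TGFβ, without overlap. Its difference was 0.51 (limma adjusted p = 0.0833) with TGFβ and 0.39 (limma adjusted p = 0.328) untreated. The substrate gene Eif2s1 differed by 0.07 (95% interval -0.15 to 0.30) with TGFβ and 0.01 (95% interval -0.18 to 0.20) untreated. Phosphorylation itself is not measured by RNA sequencing.

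**Figure D5:**
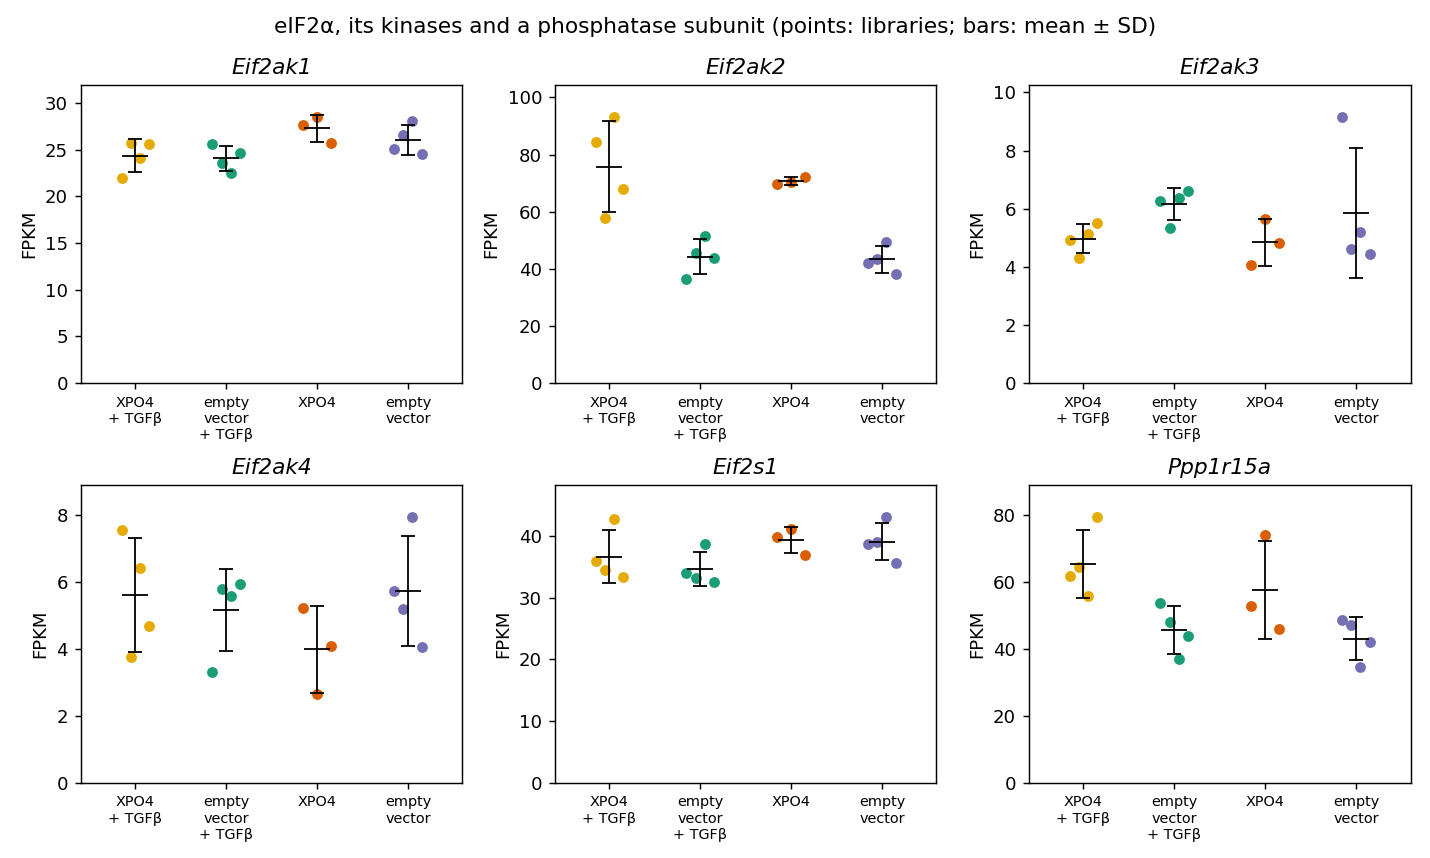
FPKM of the 4 eIF2 kinase genes, their substrate gene Eif2s1 and the phosphatase subunit gene Ppp1r15a, with 1 point per library and the mean ± SD of each group (n = 4, 4, 3 and 4 from left to right). Eif2ak2 lies at 57.6 to 93.2 FPKM in XPO4 and 36.2 to 51.4 in empty-vector libraries with TGFβ, and at 69.6 to 72.2 and 38.0 to 49.5 untreated, while the libraries of Eif2ak1 and Eif2s1 overlap between XPO4 and empty vector.

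Promoters were compared because the one kinase gene that rose is known for interferon induction, which works through elements with repeated GAAA. The motif GAAA, any pair of bases, GAAA was searched on both strands from 250 bases before to 50 after the start, in RefSeq promoters of GRCm38.p6. It was found in 3 of 38 members with such a promoter (Eif2s1, Eif2s3x and Eif3a), 7.89%, against 3.99% of 27025 genes, and in Eif2ak2. A stretch of 100 bases that holds each match is shown 5′ to 3′ on the strand of the gene, with the match in capitals. Counted from the RefSeq start, the match lies downstream in Eif2ak2, at positions 19 to 28, and across the start in Eif2s3x. In Eif2s1 and Eif3a it lies over 200 bases upstream. GENCODE starts Eif2s1 at 78861819 and Eif2s3x at 94212862, and by those starts both of these matches lie inside the gene.
Eif2ak2 (chr17:78882545-78882644, minus strand): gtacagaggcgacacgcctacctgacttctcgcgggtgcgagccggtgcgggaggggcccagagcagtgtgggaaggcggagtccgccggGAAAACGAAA
Eif2s1 (chr12:78861822-78861921, plus strand): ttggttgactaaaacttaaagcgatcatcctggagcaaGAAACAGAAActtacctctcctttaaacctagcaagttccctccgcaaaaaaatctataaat
Eif2s3x (chrX:94212627-94212726, minus strand): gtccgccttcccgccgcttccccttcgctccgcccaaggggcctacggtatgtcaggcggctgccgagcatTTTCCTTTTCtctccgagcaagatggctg
Eif3a (chr19:60790844-60790943, minus strand): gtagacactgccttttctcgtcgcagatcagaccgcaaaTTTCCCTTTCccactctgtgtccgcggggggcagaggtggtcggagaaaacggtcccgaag
In Eif2s3x and Eif3a the match is on the other strand and reads as its reverse complement. The 3 member genes with a match differed by 0.01, -0.14 and -0.05 with XPO4 in untreated cells. A match describes these letters and is not a shown binding site.

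Of the other motifs searched on both strands in the same windows, CTTCCG, the core of ETS sites, was found in 20 of 38 members, 52.6%, against 18.8% of 27025 genes. The E-box CACGTG was found in 8 of 38, 21.1%, against 8.09%, among them Eif4a1, Eif4e, Eif4g1, Eif4h and Eif3a. TGATGNAA was found in Eif2s3x alone, against 4.51% of genes, and TGACGTCA in 0 of 38, against 2.03%. These shares describe the windows as given and were not tested.

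In the remaining 4 lists 0 genes passed (limma) in any of the 5 comparisons, where at most 3.74% of all genes passed. At an unadjusted p under 0.05, TGFβ came with 1 lower eIF5A gene in each construct, with 1 lower cap, poly(A) and scanning partner in XPO4 and 2 in empty-vector cells, and with 1 higher mTORC1 gene in empty-vector cells. Of all genes 4.86% were lower at that level in XPO4 cells, and 5.68% were lower and 5.81% higher in empty-vector cells. The eIF5A genes encode the factor that eases peptide bond formation and is a known cargo of exportin-4. Eif5a measured 1092, 1236, 1001 and 1141 FPKM in XPO4 against 1175, 1146, 1083 and 1078 in empty-vector libraries with TGFβ, and 1322, 1311 and 1230.1 against 1356, 1349, 1223 and 1358 untreated. XPO4 and empty-vector libraries overlapped in both treatments, with differences of -0.01 and -0.04. With TGFβ against untreated, Eif5a differed by -0.21 in XPO4 cells (limma adjusted p = 0.238), where the ranges met, and by -0.24 in empty-vector cells (limma adjusted p = 0.103), where every treated value lay below every untreated one. Of 20 tested cap, poly(A) and scanning partners, 1 was higher and 1 lower with XPO4 under TGFβ at an unadjusted p under 0.05, and 0 higher and 3 lower untreated. The shares of all genes were 7.66% higher and 6.34% lower with TGFβ, and 8.2% higher and 7% lower untreated. Pabpc4, a poly(A)-binding protein gene, led this list at 68.2 ± 2.65 FPKM in XPO4 and 81.0 ± 5.02 in empty-vector cells with TGFβ (SD, n = 4 each; difference -0.24, limma adjusted p = 0.134). Untreated, Pabpc4 stood at 74.5 ± 4.95 and 90.9 ± 8.16 FPKM (SD, n = 3 and 4; difference -0.28, limma adjusted p = 0.148).

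Elongation and termination factors, 10 of them tested, had 0 genes at an unadjusted p under 0.05 with XPO4 in either treatment. Of all genes 14% with TGFβ and 15.2% untreated were at that level, so for 10 genes a count of 0 is not far from these shares. Their medians were -0.04 with TGFβ and -0.05 untreated. With TGFβ against untreated their medians were -0.11 in XPO4 and -0.08 in empty-vector cells. Eef1g was the 1 gene lower at an unadjusted p under 0.05 in each, beside 4.86% of all genes lower in XPO4 and 5.68% in empty-vector cells. Of 11 tested mTORC1 genes, 1 was higher with XPO4 under TGFβ at an unadjusted p under 0.05 (Mlst8, 0.21, limma adjusted p = 0.282) and 0 untreated. The shares of all genes higher at that level were 7.66% and 8.2%. Medians of the mTORC1 list were -0.01 with TGFβ and 0.12 untreated.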

How the data were processed

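RNA of 15 JS1 libraries was measured by poly(A)-selected, strand-keeping (dUTP) RNA sequencing, per the labels' protocols. The authors deposited FPKM values per gene in 1 table for each treatment; the submitters' processing notes list STAR 2.7.2b, CASAVA 1.8.2 and, as builds, mm10 and GRCh38 without roles. No source used here names the program that computed FPKM. Read depth is unknown, so no counting error is given. Differences are of log2(FPKM + 1), fitted with limma 3.58.1 in R 4.3.3 (trend, Benjamini-Hochberg over all genes averaging 1 FPKM or more). Each XPO4 comparison used the 2 groups of its own table; TGFβ comparisons and the interaction used all 4 groups. The fit was tested on simulated data with independent noise for each gene and library. The shared deviation of libraries numbered 2 was not in them, so this does not test the fit under it. Groups not overlapping means that every library of one lies above every library of the other. The threshold was an adjusted p of 0.05, and for Xpo4 an exact permutation test, two-sided, was added (scipy 1.17.1). Tables and figures were made with Python 3.11.15, pandas 2.3.3 and matplotlib 3.10.9. Positions are of mm10 with GENCODE M21; promoters are RefSeq's. Alternatives were other pseudocounts, filters, scalings, blocks and fits, and leaving out each library.

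The members and lists were chosen with earlier results of these data known. Named members are those with the smallest p in each comparison the highest and lowest detected of each role, and sets of paralogues. In the related lists the 4 genes with the smallest p could be named. Members outside that rule (Eif2s1, Eif1ad, Eif5, Eif2b5 and further eIF3 subunits) were named after their values were seen.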

Additional observations from a re-analysis of the deposited data

Results flagged for a closer look

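In groups of 4 libraries, the highest or lowest library was set against the rest by Dixon's ratio at the 95% level; 7 of 120 groups (named members, eIF2 kinases and Xpo4) stood out, where chance gives about 5%. XPO4 replicate 2 with TGFβ was low in Eif4a3, at 94.9 FPKM. Untreated empty-vector replicate 2 was high in Eif4e, at 61.0 FPKM. Eif4e3 was listed at 0 in untreated empty-vector replicate 1 and at 0.0828 FPKM in XPO4 replicate 0 with TGFβ, levels near the floor of these tables. Empty-vector replicate 2 with TGFβ was high in Eif4g2, at 684 FPKM. Eif2ak3 was at 9.16 FPKM in untreated empty-vector replicate 0, and Eif2ak4 at 3.32 FPKM in empty-vector replicate 0 with TGFβ. The cause of these values was not tested.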

How the results depend on the processing

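Over the alternatives run, 0 results with a call reversed; the member median of the interaction, near 0 at 0.000636, was -0.00900 on the TPM scale and -0.0153 after quantile normalization. With the replicate block 224 genes passed for XPO4 untreated. Same-numbered libraries did not correlate throughout (0.0251 to 0.0399 untreated and -0.145 to 0.241 with TGFβ). Libraries numbered 2 gave the 0.241 with TGFβ, and 0.163 between treated and untreated empty-vector cells. In XPO4 cells they gave -0.0004 between treatments. The pair of treated XPO4 and untreated empty-vector cells was not computed. Leaving out the libraries numbered 2 of the 3 groups of 4 together, 1 gene passed in the interaction. With all 4 groups in 1 fit, 676 genes passed for XPO4 with TGFβ and 1 member (Eif3i) untreated. After quantile normalization the member median with TGFβ was -0.0844, and on the TPM scale 1 gene passed in the interaction. Leaving out 1 library at a time gave 276 to 451 genes and 0 to 1 member for XPO4 untreated, 118 to 214 genes for TGFβ in XPO4 cells, 108 to 243 genes and 0 to 1 member for TGFβ in empty-vector cells, and 0 to 1 gene in the interaction. The Xpo4 difference with TGFβ stayed between 0.79 and 1.07, with an exact permutation p of 0.0571, the smallest that 3 against 4 libraries allow. The cause of these shifts was not tested. FPKM without counts leaves the precision of low genes unknown.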
